A study of Mus musculus with 8 samples.

Results

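The set described here is 9 mouse genes that move iron into, within and out of cells: the transferrin receptor gene Tfrc, the transferrin gene Trf, the iron regulatory protein genes Aco1 and Ireb2, the ferritin subunit genes Fth1 and Ftl1, the exporter gene Slc40a1, the importer gene Slc11a2 and the hepcidin gene Hamp. They were taken by name from the platform annotation, out of 18192 genes with a probe set that names a single gene. Of the 9 genes, 7 had such probe sets, 17 in all among the 45036 probe sets with values. The single Trf probe set also names Srprb, and the 3 Ftl1 probe sets also name other loci, so no value is given for either gene. All 17 probe sets exceeded the pooled median of all signals, 73.5 units, on at least 2 arrays and entered the tests. The set was chosen partly on measured values of these arrays, the unequal response of Tfrc to retinoic acid (RA) in the 2 lines, and that contrast is therefore described without a test.

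RNA came from AML12, a hepatocyte line established from a mouse transgenic for transforming growth factor alpha, and from a v-erbA-transfected derivative. The v-erbA oncoprotein, of retroviral origin, is an altered thyroid hormone receptor that acts as a repressor. Each line was untreated or was given RA at 1 µM, and was sampled at 3 h or 24 h, which makes 8 combinations with 1 Affymetrix array each. The arrays thus comprised untreated AML12 cells at 3 h and at 24 h, RA-treated AML12 cells at 3 h and at 24 h, and the same 4 conditions for v-erbA-transfected AML12 cells. Groups followed the titles, although the descriptions of 3 arrays titled 24 h speak of 3 h, and the treatment note of the untreated AML12 array at 3 h speaks of RA. Whether the transfected cells were a clone or a pool, and whether the AML12 controls carried an empty vector, is not given in the sources used here. With 1 line of each kind, v-erbA and any other difference between the 2 lines cannot be told apart. No combination was repeated, and the p-values measure the spread among these 8 arrays around a model of line, treatment and time.

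Values are the deposited signal intensities on a linear scale from 0 to 12275 units, with array medians from 71.2 to 76.1 units. Differences are on the log2(signal + 19.9) scale, which understates the change of dim probe sets, and are given with the standard error (SE) of a limma fit over 4 arrays against 4. A difference was called where the p-value adjusted by Benjamini-Hochberg over all 24955 probe sets tested was under 0.05. Nrip1, a corepressor gene known to respond to RA, measured 264 to 409 units on the 4 untreated arrays and 968 to 1155 units on the 4 RA arrays, with a limma difference of 1.67 ± 0.11 and an adjusted p of 0.000955. Alb, the albumin gene that marks hepatocytes, measured 9364 to 11053 units on all 8 arrays. Of 13 hepatocyte markers with a probe set, 9 exceeded the pooled median on all 8 arrays, and Cyp2e1 lay under it on all 8. The summed signal of the 13 was 29614 to 37144 units in AML12 cells and 24526 to 27005 units in the v-erbA line.

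Cells take up iron mainly as diferric transferrin, which the transferrin receptor carries into endosomes, from where the transporter encoded by Slc11a2 (DMT1) moves iron into the cytosol. Ferritin, built of heavy chains from Fth1 and light chains from Ftl1, stores the excess, and ferroportin, the product of Slc40a1, is the only known iron exporter of mammalian cells. Hepcidin, a hormone secreted by hepatocytes, binds ferroportin and causes its degradation. The iron regulatory proteins IRP1 (Aco1) and IRP2 (Ireb2) bind iron-responsive elements in several of these transcripts when iron is scarce, which stabilizes Tfrc mRNA and blocks translation of ferritin and ferroportin mRNA. IRP1 carrying an iron-sulfur cluster is the cytosolic aconitase. Arrays measure transcript abundance and give no reading of translation or of protein.

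The sequence upstream of the start is shown for Tfrc and Aco1, because Tfrc was the gene whose RA response was known to be unequal in the 2 lines and Aco1 was the one gene of the set called for RA. Each is the 250 bases before an annotated start in RefSeq on mouse assembly GRCm38.p6, plus strand, 5′ to 3′. Tfrc lies at chr16:32608896-32632794, and its upstream window is chr16:32608646-32608895. Aco1 lies at chr4:40143265-40199009, and its upstream window is chr4:40143015-40143264. Capitals mark GGGCGG on either strand, the core of the GC box bound by Sp1 family factors.
Tfrc upstream window: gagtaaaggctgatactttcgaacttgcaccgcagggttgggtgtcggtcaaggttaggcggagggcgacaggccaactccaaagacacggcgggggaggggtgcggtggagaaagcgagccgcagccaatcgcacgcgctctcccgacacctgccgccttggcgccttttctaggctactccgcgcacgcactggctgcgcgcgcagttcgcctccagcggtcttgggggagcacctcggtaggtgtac
Aco1 upstream window: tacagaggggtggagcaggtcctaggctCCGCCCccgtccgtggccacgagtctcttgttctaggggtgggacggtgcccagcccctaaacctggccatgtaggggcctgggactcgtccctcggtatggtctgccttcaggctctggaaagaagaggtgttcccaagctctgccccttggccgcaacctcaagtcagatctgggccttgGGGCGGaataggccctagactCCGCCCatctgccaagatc

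GGGCGG occurs 3 times in the Aco1 window and 0 times in the Tfrc window shown. RefSeq gives Tfrc another start, whose window, chr16:32608872-32609121, holds GGGCGG 1 time. Of 32851 windows of the same length, 32.7% hold it on either strand. The half-site AGGTCA, to which thyroid hormone and retinoic acid receptors can bind, is in none of these Tfrc and Aco1 windows and is in 14% of all windows. Both motifs were searched on both strands, and neither contains the other. These are matches of letters in 250 bases and carry no measurement of binding.

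The v-erbA line differed from AML12 at most of the genes. Slc40a1 was 2.96-fold higher, Tfrc 1.38-fold higher, Ireb2 1.20-fold higher and Fth1 1.07-fold higher, while Aco1 was 1.25-fold lower, each by the probe set with the highest mean. By that probe set 5 of 7 genes were called, 4 higher and 1 lower, beside 53.2% of the 12015 genes tested, 26.3% higher and 26.8% lower. Of all 17 probe sets 11 were called, 9 higher and 2 lower, beside 49.7% of all probe sets tested, 25.4% higher and 24.3% lower. Genes and probe sets are few here and several probe sets share a gene. Whether these shares differ from those of the whole array was not tested. Over all probe sets 6348 were higher and 6055 lower in the v-erbA line, against 5431 and 6712 with each array centred on its median. In 6 of 7 genes the 4 arrays of one line did not overlap the 4 of the other, as in 38.2% of all genes tested. In bulk RNA, fewer cells of a type and less RNA per cell cannot be told apart.

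**Figure D1:**
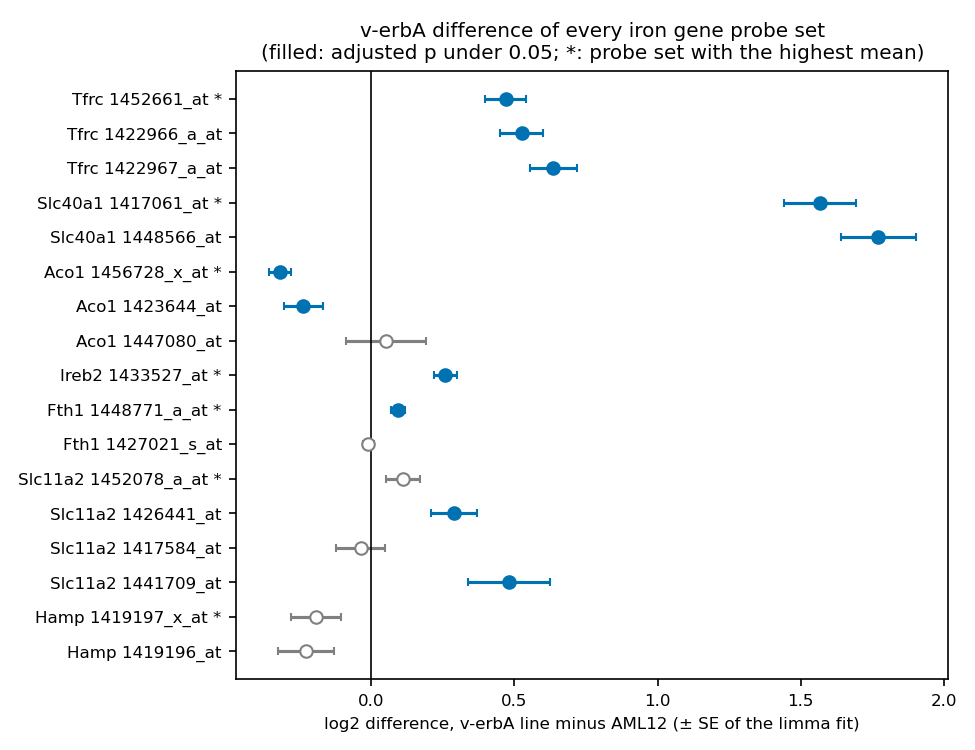
Each point is the log2 difference of 1 probe set, v-erbA line minus AML12, with the SE of the limma fit over 8 arrays; filled points passed an adjusted p of 0.05 and an asterisk marks the probe set with the highest mean of its gene. The 2 Slc40a1 probe sets lie farthest to the right, at 1.57 and 1.77, the 3 Tfrc probe sets and a dim Slc11a2 probe set (0.48) follow between 0.47 and 0.64, and the 2 brighter Aco1 probe sets lie left of 0.

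Tfrc encodes the receptor through which transferrin-bound iron enters. Its probe set with the highest mean, 1452661_at, measured 1571 units in untreated AML12 cells at 3 h and 1434 at 24 h, and 2187 and 2206 after RA. In the v-erbA line it measured 2414 and 2363 units untreated and 2754 and 2578 after RA. Every v-erbA array thus lay above every AML12 array, and the 2 untreated AML12 arrays were the lowest of the 8. The limma difference between lines was 0.47 ± 0.07 with an adjusted p of 0.000498. The v-erbA line was 1.54 times as high as AML12 among untreated cells at 3 h and 1.65 times at 24 h, and 1.26 and 1.17 times as high among RA-treated cells.

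The other Tfrc probe sets had the same order of groups. Probe set 1422966_a_at measured 344, 385, 498 and 535 units in AML12 cells (untreated at 3 h and 24 h, then RA at 3 h and 24 h) and 587, 618, 659 and 671 units in the v-erbA line. The dimmer 1422967_a_at measured 87.9, 75.5, 116 and 121 units in AML12 cells and 147, 149, 197 and 168 units in the v-erbA line. Neither had overlapping lines. Their limma differences were 0.52 ± 0.07 (adjusted p = 0.000307) and 0.64 ± 0.08 (adjusted p = 0.000179), so all 3 Tfrc probe sets were called in the same direction. The call of each was kept under every alternative run, and the leading probe set ranged from 0.40 to 0.54.

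Slc11a2 encodes the transporter that releases iron from endosomes. Its brightest probe set, 1452078_a_at, measured 201, 213, 209 and 213 units in AML12 cells and 221, 243, 218 and 226 units in the v-erbA line, in the same order of conditions. The lines did not overlap, but the limma difference of 0.11 ± 0.06 did not pass (adjusted p = 0.154). The next probe set, 1426441_at, measured 152, 144, 169 and 206 units in AML12 cells against 199, 206, 208 and 218 units, a difference of 0.29 ± 0.08 that limma called (adjusted p = 0.0131). On that probe set the RA-treated AML12 array at 24 h reached the level of the v-erbA line, while the other 3 AML12 arrays stayed below it. A dim probe set, 1441709_at, between 42.4 and 91.4 units, was also called at 0.48 ± 0.14 (adjusted p = 0.0194), and 1417584_at, between 79.4 and 97.2 units, was not, at -0.04 ± 0.09 (adjusted p = 0.747). The 4 probe sets of this gene therefore disagree on whether it differed between lines, and leaving out an array could end both calls. That of 1426441_at was lost without the untreated v-erbA array of 3 h or of 24 h (adjusted p = 0.0546 and 0.0511), and that of 1441709_at without any of 5 arrays, the untreated AML12 and v-erbA arrays at 24 h, the RA-treated AML12 array at 3 h and both RA-treated v-erbA arrays (0.0570 to 0.0725).

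Slc40a1, the ferroportin gene at chr1:45908070-45926532, had the largest difference of the set. Probe set 1417061_at measured 1143 units in untreated AML12 cells at 3 h, 696 at 24 h, and 1460.3 and 1307 after RA at 3 h and 24 h. In the v-erbA line the same conditions gave 3257, 3106, 3421 and 3558 units. Every v-erbA array lay far above every AML12 array, and the untreated AML12 array at 24 h stood below the other AML12 arrays. The limma difference was 1.57 ± 0.13 with an adjusted p of 9.19e-06. Probe set 1448566_at gave 516, 308, 693 and 582 units in AML12 cells against 1718, 1627, 1799.9 and 1946 units, a 3.41-fold difference of 1.77 ± 0.13 (limma, adjusted p = 5.6e-06). Counted from the highest, these 2 probe sets ranked 93 and 69 among the 24955 tested for the v-erbA difference.

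The ratio of the lines at 1417061_at was 2.85 in untreated cells at 3 h, 4.46 in untreated cells at 24 h, 2.34 with RA at 3 h and 2.72 with RA at 24 h. It was thus above 2 in all 4 pairs of arrays, and highest in the pair that holds the low untreated AML12 array. Leaving out each array in turn gave differences between 1.39 and 1.70, all called. Slc40a1 is strongly expressed in macrophages. Of 8 macrophage markers, Cd68, Cd163, Clec4f and Ptprc were below the pooled median on all 8 arrays, and the summed signal of the 8 was 3453 to 5544 units in AML12 cells and 2252 to 3094 units in the v-erbA line. Most of that sum was Cd14, with a mean of 4129 units in AML12 cells and 2167 units in the v-erbA line, and Cd14 was the only marker of the list called. The mean signal of 5 of the 8 markers was higher in the v-erbA line, among them the dim Cd68 (23.7 and 55.4 units) and Ptprc (18.7 and 51.4 units). The part of macrophage transcripts in the Slc40a1 difference was not tested.

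Hamp encodes hepcidin, the hormone that removes ferroportin from the cell surface. Its brighter probe set, 1419197_x_at, measured 84.9, 97.9, 86.8 and 92.9 units in AML12 cells and 77.5, 82.5, 76.7 and 70.3 units in the v-erbA line. These signals lay close to the pooled median of 73.5 units, and 7 of the 8 exceeded it. The lines did not overlap, and the difference of -0.19 ± 0.09 did not pass (limma, adjusted p = 0.0931). The second probe set, 1419196_at, between 63.4 and 94.5 units, gave -0.23 ± 0.10 (adjusted p = 0.0790). Mouse has a near-identical second hepcidin gene, and the x in an Affymetrix name marks sets in which some probes also match other transcripts, so these signals are uncertain as readings of Hamp alone.

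The 2 iron regulatory protein genes differed in opposite directions between the lines. Ireb2, at chr9:54862658-54912534, encodes IRP2 and measured 1312, 1381, 1377 and 1445 units in AML12 cells and 1598, 1660.3, 1562 and 1796 units in the v-erbA line on its single probe set. The lines did not overlap, and the limma difference was 0.26 ± 0.04 (adjusted p = 0.000555). Aco1, which encodes IRP1, measured 3311, 3351, 3747 and 4310.25 units in AML12 cells and 2699.9, 2784, 2947 and 3324 units in the v-erbA line on 1456728_x_at. Each v-erbA array was lower than its AML12 partner, although the highest v-erbA array just overlapped the lowest AML12 array. The difference was -0.32 ± 0.04 (limma, adjusted p = 0.000138).

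A second Aco1 probe set, 1423644_at, gave 744, 771, 874 and 1147 units in AML12 cells and 651, 692, 705 and 924 units in the v-erbA line, a difference of -0.24 ± 0.07 (limma, adjusted p = 0.0176). It was lower in the v-erbA line in 4 of 4 pairs, and its call was lost without any of 4 arrays, the untreated AML12 array at 3 h, the RA-treated AML12 array at 24 h, the untreated v-erbA array at 24 h and the RA-treated v-erbA array at 3 h (adjusted p = 0.0551 to 0.0673). The third, 1447080_at, exceeded the pooled median on 3 arrays only and had a difference of 0.05 ± 0.14 (adjusted p = 0.786). The bright Aco1 probe sets therefore share the direction and the dim one does not show it.

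Fth1, the ferritin heavy chain gene at chr19:9980600-9985111, was near the top of the signal scale. Probe set 1448771_a_at measured 9393, 9444, 9232 and 8984 units in AML12 cells and 9718, 10373, 9716 and 9731 units in the v-erbA line. The lines did not overlap, and the difference was small, 0.09 ± 0.02 (limma, adjusted p = 0.00958). This call was lost when each array was centred on its own median (adjusted p = 0.0695) and without the mean-variance trend (adjusted p = 0.142). The other probe set, 1427021_s_at, lay between 9167 and 9576 units on all arrays, with a difference of -0.01 ± 0.02 (adjusted p = 0.671), so the ferritin heavy chain call rests on 1 of 2 probe sets.

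**Figure D2:**
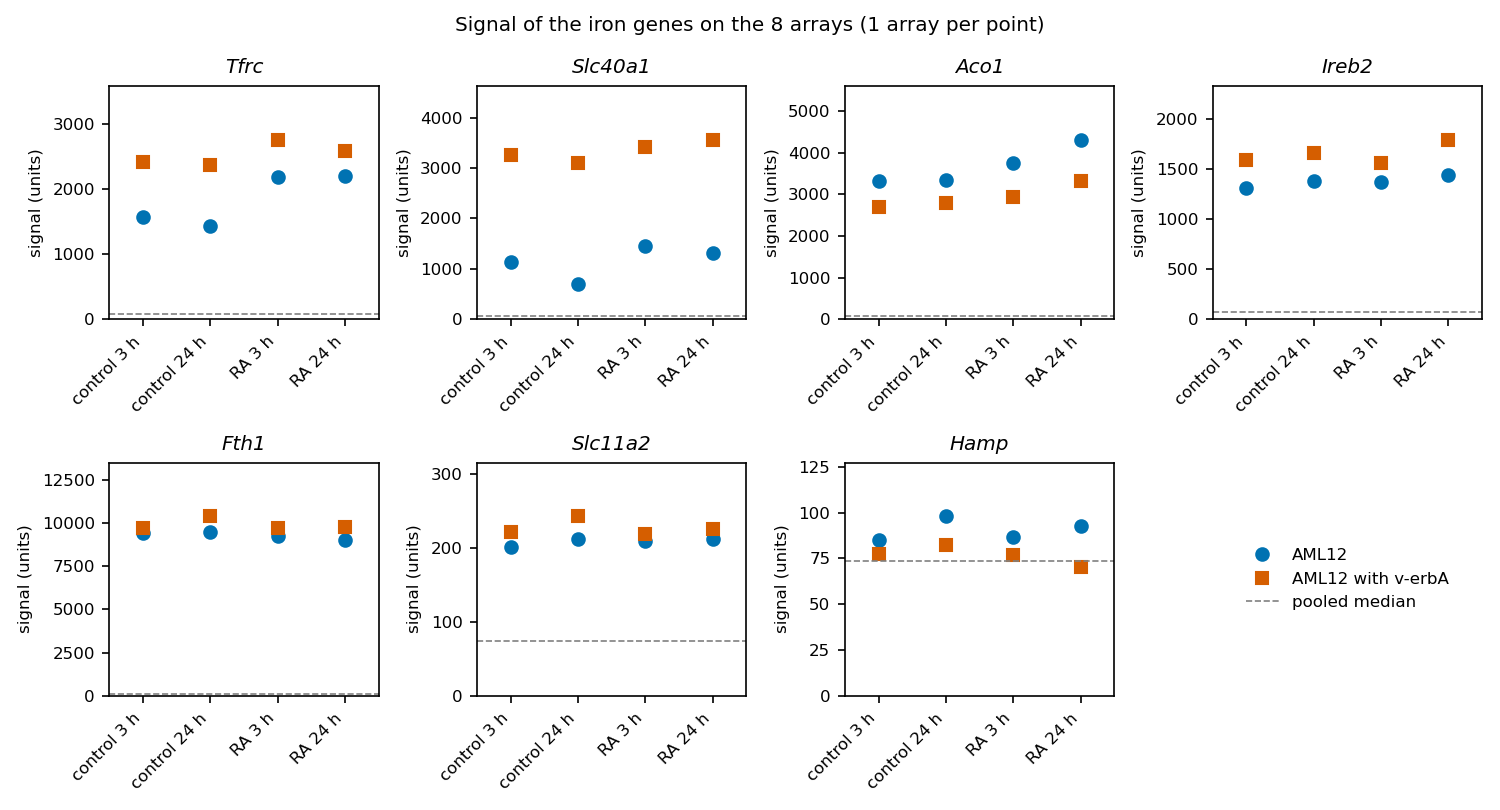
Each panel shows the linear signal of a gene's brightest probe set on the 8 arrays, with 1 array per point; the horizontal axis gives treatment and time, marker shape and colour give the line, and the dashed line is the pooled median. The v-erbA points lie above the AML12 points for Tfrc, Slc40a1, Ireb2, Fth1 and Slc11a2, and below them for Hamp and, pair by pair, for Aco1.

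RA raised Aco1, and no other gene of the set passed that test. With lines and times averaged, the leading Aco1 probe set rose by 0.23 ± 0.04, or 1.17-fold, and was higher with RA in 4 of 4 pairs (limma, adjusted p = 0.0259). That probe set, 1456728_x_at, carries the x that marks possible matches to other transcripts, so the only RA call of the set is uncertain as a reading of Aco1 alone. That made 1 of 7 genes called, beside 1.21% of all genes tested (0.841% higher), and 1 of 17 probe sets, beside 1.15% of all probe sets tested (0.669% higher). At an unadjusted p under 0.05, 3 of 7 genes passed, Aco1, Tfrc and Slc40a1, beside 1256 of the 12015 genes tested. Of these, Tfrc is the gene whose RA response led to the choice of the set. Over all probe sets 167 rose and 119 fell with RA, and with each array centred on its median 233 rose and 94 fell. Aco1 lost its call without the mean-variance trend (adjusted p = 0.197) and when any AML12 array or either v-erbA array of 24 h was left out, 6 of 8 arrays in all, with adjusted p between 0.0513 and 0.120. The call was kept without either v-erbA array of 3 h. Its second probe set had a difference of 0.33 ± 0.07 and did not pass (adjusted p = 0.0673).

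Tfrc and Slc40a1 were higher with RA in 4 of 4 pairs without passing. The Tfrc difference was 0.35 ± 0.07 (limma, adjusted p = 0.0584), and the other Tfrc probe sets gave 0.31 (adjusted p = 0.0992) and 0.36 (adjusted p = 0.0856). The leading Tfrc probe set passed in 5 of 17 alternatives, among them no filter on dim probe sets (adjusted p = 0.0446), centring of each array (0.0373) and leaving out the RA-treated v-erbA array at 24 h (0.0451). The Slc40a1 difference was 0.38 ± 0.13 (adjusted p = 0.261), and 0.40 ± 0.13 at the second probe set (adjusted p = 0.248). Both genes passed in a limma model with all 2-way interactions, which leaves 1 residual degree of freedom (adjusted p = 2.55e-06 for Tfrc and 8.53e-06 for Slc40a1). That model also fits the line by RA term, the Tfrc contrast on which the set was chosen, and so takes it out of the residual. The Tfrc SE was 0.04 there, against 0.07 in the main model. The Tfrc p-value of that model therefore draws on the values used for the choice and is no separate test of RA. Ireb2, Fth1, Slc11a2 and Hamp differed with RA by 0.05, -0.05, -0.01 and -0.06 at their brightest probe sets, with adjusted p of 0.683, 0.507, 0.962 and 0.869. Slc11a2 1426441_at was higher with RA in 4 of 4 pairs, by 0.18 ± 0.08, without passing (limma, adjusted p = 0.419).

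Within the lines, the RA difference of Tfrc was 0.47 at 3 h and 0.61 at 24 h in AML12 cells, which is 1.39 and 1.54 times the untreated signal. In the v-erbA line it was 0.19 and 0.12, or 1.14 and 1.09 times. The mean v-erbA response minus the mean AML12 response was -0.39, and -0.34 and -0.18 at the other Tfrc probe sets. Both AML12 values exceeded both v-erbA values at the brightest probe set, but at 1422967_a_at the responses at 3 h were 0.34 in AML12 cells and 0.38 in the v-erbA line. At the brightest probe set, RA-treated AML12 cells stayed below untreated v-erbA cells. These values of Tfrc are those for which the set was chosen.

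Slc40a1 had the same order of responses. Its RA difference was 0.35 at 3 h and 0.89 at 24 h in AML12 cells and 0.07 and 0.19 in the v-erbA line, so the v-erbA response was lower by 0.49 on average, with a gap of 0.54 between the 2 AML12 values. The AML12 value at 24 h is measured against the low untreated array of 696 units. Aco1 responded by 0.18 and 0.36 in AML12 cells and by 0.13 and 0.25 in the v-erbA line, a difference of -0.08. For Ireb2 the 4 values lay between -0.03 and 0.11, and for Fth1 between -0.09 and just under 0. Slc11a2 lay between -0.10 and 0.05 and Hamp between -0.18 and 0.03. All of these are values of the brightest probe sets, and the other probe sets of Slc11a2 and Hamp varied more. Slc11a2 1426441_at responded by 0.14 and 0.46 in AML12 cells and by 0.06 and 0.07 in the v-erbA line. The dimmer Slc11a2 1417584_at lay between -0.20 and 0.07 and 1441709_at between -0.56 and 0.22. Hamp 1419196_at lay between -0.19 and 0.20. With 1 pair of arrays per line and time, no test of these differences was made.

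**Figure D3:**
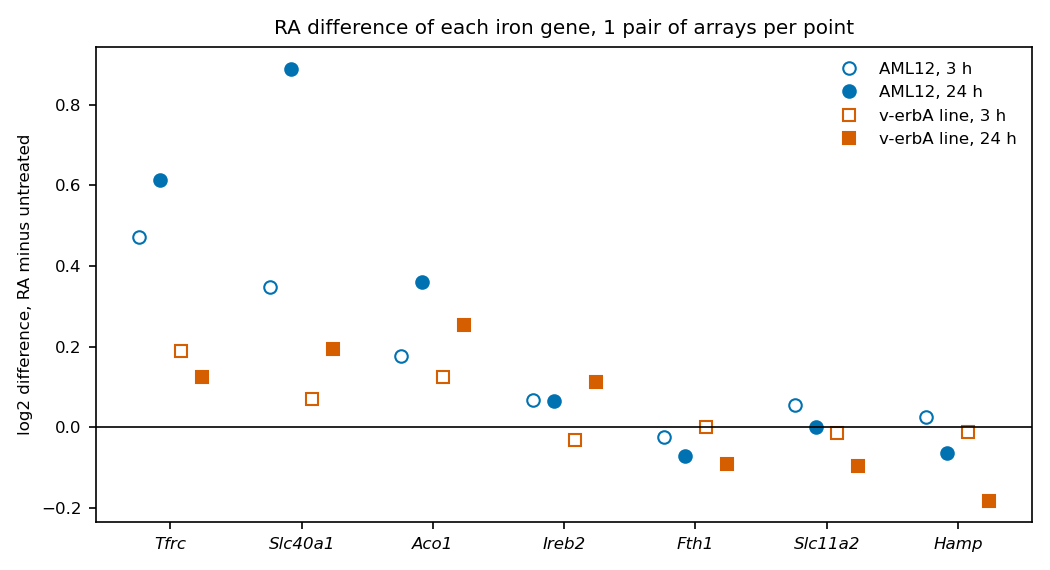
Each point is the log2 difference of RA-treated minus untreated cells for 1 pair of arrays, at the brightest probe set of each gene; shape and colour give the line and filling gives the time. The AML12 points of Tfrc (0.47 and 0.61) and Slc40a1 (0.35 and 0.89) lie above the v-erbA points of the same genes. The points of Ireb2, Fth1 and Slc11a2 lie between -0.10 and 0.11, and those of Hamp between -0.18 and 0.03.

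Between 3 h and 24 h few of the probe sets differed. Of 17 probe sets 2 were called, both of Aco1 and both higher at 24 h, beside 30.4% of all probe sets tested (16.6% higher). Of 7 genes 0 were called by their brightest probe set in limma, beside 33.8% of all genes tested. At an unadjusted p under 0.05 there were 2 of 7, beside 5494 of the 12015 genes tested. Over all probe sets 4140 were higher and 3440 lower at 24 h, against 3280 and 4229 with each array centred on its median. Aco1 1423644_at was higher at 24 h by 0.23 ± 0.07 (limma, adjusted p = 0.0345), a call lost with centred arrays, without the trend or without any of 5 arrays (both RA-treated AML12 and both RA-treated v-erbA arrays, and the untreated v-erbA array at 24 h), and the brightest Aco1 probe set by 0.11 ± 0.04 (adjusted p = 0.0634). The latter passed with quantile normalization (0.0491), with all 2-way interactions (0.00621) and without the untreated AML12 array at 24 h (0.0177). Slc40a1 differed by -0.22 ± 0.13 at 1417061_at (adjusted p = 0.223), and passed with all 2-way interactions (0.000493) and without the RA-treated v-erbA array at 3 h (0.0463). The dim Aco1 probe set 1447080_at measured 17.8 to 30.0 units on the 4 arrays of 3 h and 61.6 to 86.8 units on those of 24 h. It was called with an adjusted p of 0.000156, and since all 3 h arrays lay below the pooled median, the fold is given as at least 1.02 against that level. Ireb2 was higher at 24 h by 0.10 ± 0.04 without passing (adjusted p = 0.0923).

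No gene of the set was called for a line difference that depended on time, or for an RA difference that depended on time. In the first limma model 0 of 7 genes passed, with adjusted p from 0.639 to 0.998, beside 0.108% of all genes tested. There 0 of 7 had an unadjusted p under 0.05, beside 1084 of the 12015 genes tested. In the second 0 of 7 passed, with adjusted p from 0.645 to 0.974, beside 0.0166% of all genes tested. There 1 of 7 had an unadjusted p under 0.05, beside 922 of the 12015. The largest values of the first kind were those of Slc40a1, 0.42 ± 0.22 at 1417061_at (adjusted p = 0.639) and 0.49 ± 0.22 at 1448566_at (adjusted p = 0.575). The former passed in the model with all 2-way interactions (adjusted p = 0.0136). Without the RA-treated AML12 array at 24 h it was 0.77 (adjusted p = 0.0103), and without the untreated AML12 array at 24 h it was 0.08 (adjusted p = 0.806), so single AML12 arrays of 24 h set this value.

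The share of the variation over the 8 arrays that went with each factor differed among the genes. At the brightest probe sets, line held 88.1% of the sum of squares of Slc40a1 and 80.5% of that of Ireb2. For Tfrc, line held 57.0%, RA 31.7% and the line by RA term 9.64%. For Aco1 the shares were 58.4% for line, 30.3% for RA and 6.80% for time. These shares describe 8 arrays without replicates, and noise is part of each.

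Among 12014 other genes, those with the pattern over 8 arrays most like that of Tfrc, by the root mean square difference of centred log2 values, were Mrnip (0.0655), Srl (0.0873), Prune1 (0.101), Etaa1 (0.101) and Stk17b (0.110). For Slc40a1 they were Atf3 (0.161), Pag1 (0.182), Golm2 (0.184), Pgap4 (0.190) and Tead2 (0.202). These distances grow with a gene's own spread, which was 0.33 for Tfrc and 0.89 for Slc40a1 as the SD of log2 values over the 8 arrays, so the distances for one gene are not comparable with those for the other.

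Other genes of iron metabolism, 96 in 6 lists, showed differences in both directions between the lines. Of the 79 that were tested, 18 were higher and 32 lower in the v-erbA line, which is 63.3% called beside 53.2% of all genes tested. Their median difference was -0.04, against 0.01 over all genes tested. With quantile normalization 20 were higher and 26 lower, and without the mean-variance trend 18 and 26.

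Of 19 tested genes of heme synthesis, breakdown and transport, 11 were lower in the v-erbA line, 2 higher and 6 did not pass, beside 26.8% lower and 26.3% higher among all genes tested. The median was -0.17, against 0.01 over all genes tested, and 10 were lower and 3 higher with quantile normalization. Alad, which encodes the second enzyme of heme synthesis, measured 904 to 1115 units in AML12 cells and 452 to 506 units in the v-erbA line, a difference of -0.97 ± 0.07 (limma, adjusted p = 6.12e-06). Slc48a1, a heme transporter gene, was lower by a similar amount, at -0.95 ± 0.06 (adjusted p = 2.32e-06). Hmox1, which encodes the heme-degrading enzyme heme oxygenase 1, was higher by 0.31 ± 0.08 (adjusted p = 0.0112), as was Slc46a1, a folate and heme transporter gene, at 0.31 ± 0.07 (adjusted p = 0.00634). At Hmox1 the lines overlapped.

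Among 12 tested genes of uptake, reduction and export, 4 were higher and 6 lower, beside 26.3% higher and 26.8% lower among all genes tested. Their median was -0.05, and 4 were higher and 4 lower with quantile normalization or without the trend. Scara5, a receptor gene for ferritin, was higher by 0.39 ± 0.09, and Exoc6, an exocyst gene needed for transferrin recycling, by 0.35 ± 0.04. Steap2, a metalloreductase gene, was lower by 0.55 on the log2 scale in the v-erbA line, at 1171 to 1313 units against 1724 to 1907 units. Slc39a14, the ZIP14 gene for import of iron not bound to transferrin, had a difference of -0.54 ± 0.13 (adjusted p = 0.00626), with lines that overlapped.

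Genes that control hepcidin were called in both directions, 5 higher and 6 lower of 18 tested, with a median of -0.03. Among all genes tested, 26.3% were higher and 26.8% lower. Smad5 and Smad6, a receptor-activated and an inhibitory SMAD of BMP signalling, were higher by 0.50 ± 0.05 and 0.50 ± 0.10. Tmprss6, the gene of the protease that restrains hepcidin, had a difference of -0.54 ± 0.15 (adjusted p = 0.013), with lines that overlapped. Il6ra, the interleukin-6 receptor gene, did not exceed the pooled median on any v-erbA array and was at least 1.42-fold lower (adjusted p = 0.00179).

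In the list of ferritin turnover and iron delivery, 2 of 10 tested genes were higher and 4 lower, beside 26.3% and 26.8% of all genes tested. The median was -0.08, and 3 were higher and 2 lower with quantile normalization. Slc25a37, the mitoferrin gene for mitochondrial iron import, had a difference of -0.68 ± 0.07 (adjusted p = 5.04e-05). Fbxl5 is the gene of the ubiquitin ligase subunit that targets IRP2 protein when iron is ample. It was lower by 0.27 on the log2 scale in the v-erbA line, with lines that overlapped, and higher at 24 h by 0.50 ± 0.05. Mcoln1, a lysosomal channel gene, and Pcbp1, an iron chaperone gene, were higher by 0.33 ± 0.07 and 0.13 ± 0.02.

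The iron-sulfur cluster list was split, with 5 higher and 4 lower of 17 tested, beside 26.3% higher and 26.8% lower among all genes tested. Its median of 0.03 was just under 0 with each array centred. Nfu1 and Glrx5, assembly and delivery factors, were higher by 0.29 ± 0.04 and 0.28 ± 0.04, and Nubp1 and the ferredoxin gene Fdx1 had differences of -0.35 ± 0.06 and -0.28 ± 0.05. At Nubp1 the lines overlapped. Of 3 other tested transcripts with an iron-responsive element, 1 was called, beside 53.2% of all genes tested. That was Epas1, the HIF-2 alpha gene, at 704 to 1247 units in AML12 cells and 241 to 419 units in the v-erbA line, a difference of -1.25 ± 0.14 (limma, adjusted p = 8.87e-05).

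**Figure D4:**
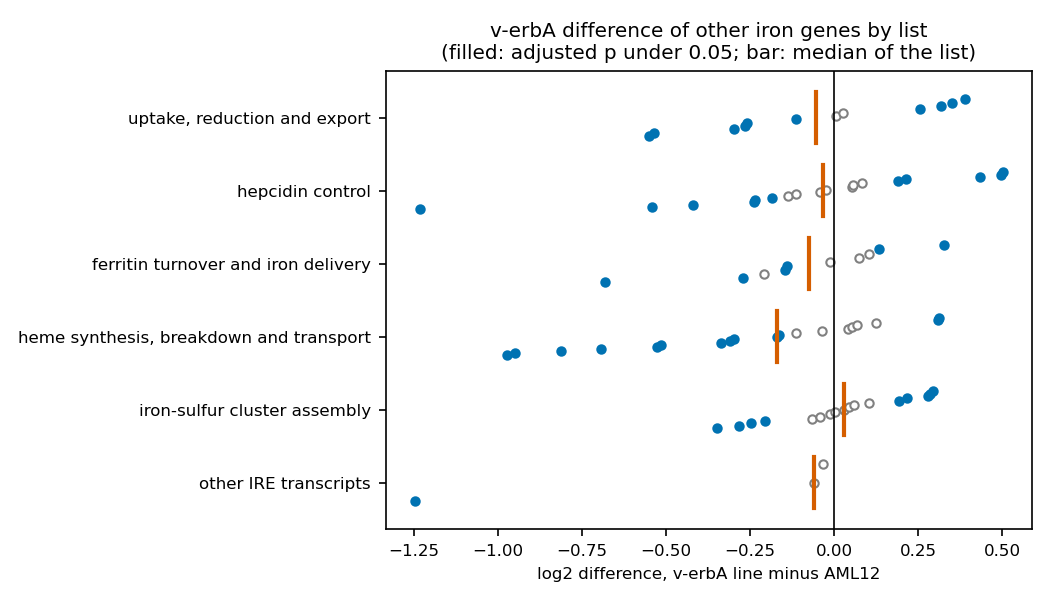
Each point is the log2 difference of 1 gene, v-erbA line minus AML12, by list; filled points passed an adjusted p of 0.05 in the limma fit over 8 arrays and the bar is the median of the list. The heme list has its median at -0.17, and the medians of the other lists lie between -0.08 and 0.03.

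For RA, 0 of the 79 genes were called in limma, beside 1.21% of all genes tested. At an unadjusted p under 0.05 there were 9 of the 79, beside 1256 of the 12015 genes tested. For time, 18 were higher and 7 lower at 24 h, 31.6% beside 33.8% of all genes tested. Lcn2, the gene of a siderophore-binding protein, was higher at 24 h by 0.24 ± 0.04, and the haptoglobin gene Hp by 0.36 ± 0.07. Bmp6, the gene of the ligand that signals iron load to hepatocytes, lay below the pooled median on all 3 h arrays and was at least 1.18-fold higher at 24 h. Smad7, an inhibitor of that pathway, had a difference of -0.43 ± 0.06 at 24 h. The biliverdin reductase gene Blvra differed by -0.34 ± 0.06, and of the iron-sulfur genes Mms19 by 0.28 ± 0.06 and Nubp1 by -0.44 ± 0.06. At Blvra and Nubp1 the arrays of 3 h and 24 h overlapped.

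Markers of further cell types were summed in the same way. Of 7 erythroid markers with a probe set, a cell type known for high Tfrc, Hba-a1, Epor, Alas2 and Ermap lay below the pooled median on all 8 arrays. The summed signal of the 7 erythroid markers was 243 to 318 units in AML12 cells and 208 to 299 units in the v-erbA line, ranges that overlap. The summed signal of 8 fibroblast and stellate markers was 6453 to 7545 units against 5166 to 6723 units. Vim made up most of it. By limma, Vim (-0.29 ± 0.05, adjusted p = 0.00126) and Col1a2 (-0.48 ± 0.12, adjusted p = 0.00648) were called lower in the v-erbA line. In the other direction Acta2 (0.68 ± 0.13, adjusted p = 0.00217) and Des (0.54 ± 0.12, adjusted p = 0.00449) were called higher. Acta2 and Des were dim, with means of 72.7 and 59.4 units in AML12 cells. The summed signal of 6 endothelial markers was 201 to 304 units against 171 to 354 units. That of 4 biliary and progenitor markers was 4772 to 5953 units against 3240.0 to 4125 units, with Krt19 lower (-0.93 ± 0.07), Krt7 higher (0.47 ± 0.08) and Epcam and Sox9 not called. Of 12 tested hepatocyte markers 8 were called lower in the v-erbA line, beside 26.8% of all genes tested. Among them were Apoa1 (-2.98 ± 0.30) and Cebpa (-1.05 ± 0.06), and 1 other marker, Afp, was called higher (0.75 ± 0.09). Some markers of these cell types were called between the lines, in both directions, and others were not called. Their part in the differences given above was not tested.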

How the data were processed

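Expression was measured on 8 Affymetrix arrays hybridized with biotin-labelled total RNA, per the labels. The authors deposited 1 linear signal intensity for each probe set on each array. How probes were summarized and arrays were scaled is not stated in any source used here, and the scaling was kept. Of 45037 probe sets listed, 1 lacked values on some arrays and was left out. Platform annotation, which can be old, named 1 gene for 34944 probe sets, several for 932 and none for 9160, and the last 2 kinds were not used for names.

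Signals were transformed to log2(signal + 19.9), the offset being the 20th percentile of all values, and a probe set was tested where at least 2 of 8 arrays exceeded the pooled median. limma 3.58.1 in R 4.3.3 fitted line, treatment and time over all 8 arrays (4 residual degrees of freedom), with a mean-variance trend and Benjamini-Hochberg adjustment over all probe sets tested. Line by time and treatment by time terms were fitted in further models (3 residual degrees of freedom). The probe set with the highest mean stood for a gene. A fold against a group that did not exceed the pooled median on any array is a lower bound, computed with that median in place of the dim group. The number of arrays limits the precision. The fit was tested on simulated data with known changes. Plots used matplotlib 3.10.9 (Python 3.11.15). Alternatives were other offsets, filters, scalings, models and sets of arrays.

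All members are named, with every probe set that names a single gene. Of each list, the 2 highest and 2 lowest v-erbA differences past the threshold are named, and the leading gene in each direction for time. The members and lists were chosen with earlier results of these data known.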

Additional observations from a re-analysis of the deposited data

How the results depend on the processing

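The v-erbA calls of the 3 Tfrc, the 2 Slc40a1, the brightest Aco1 and the Ireb2 probe sets kept direction and threshold under every alternative run. Of all member results under the alternatives, 969 kept both, 27 lost the threshold, 25 gained it and 40 changed sign, none of these last called. Hamp gained a call without the mean-variance trend (adjusted p = 0.0313 and 0.0349 at its 2 probe sets), and its 1419196_at also with centred arrays (0.0491) and quantile normalization (0.0439). No paired analysis by replicate number was possible because the labels carry none; arrays that share treatment and time are matched through those terms of the model. Nearness to background limits Hamp, the dim probe set of Aco1 and the dimmer ones of Slc11a2.

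Over all probe sets, 12403 were called for v-erbA, 286 for RA, 7580 for time, 28 for line by time and 2 for treatment by time. With 1 probe set per gene the first 4 counts were 6421, 141, 4164 and 12, with fewer features tested. For RA the count was 25 without the trend, 1481 with all 2-way interactions, and 62 to 286 with an array left out. For line by time it was 50 with an offset equal to the pooled median, 51 with no filter or with centred arrays, 0 with only probe sets above the median on all 8 arrays, 18 without the trend, 377 with all 2-way interactions and 10 to 311 with an array left out. For treatment by time it was 1 with the larger offset, the stricter filter or quantile normalization, 0 without the trend, 268 with all 2-way interactions and 0 to 98 with an array left out. The cause was not tested. The split of time calls was 3616 higher and 3928 lower with quantile normalization.

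Changes of sign were all among uncalled differences. With quantile normalization they were Fth1 1427021_s_at for v-erbA (0.0057), Slc11a2 1452078_a_at for RA (0.0041), Slc11a2 1417584_at for time (-0.011), and Aco1 1456728_x_at (0.0049) and Slc11a2 1452078_a_at (-0.0092) for line by time. With centred arrays they were Slc11a2 1452078_a_at for RA (0.016), Fth1 1448771_a_at for time (-0.018) and Slc11a2 1417584_at for time (-0.012). With an array left out, the v-erbA difference of Aco1 1447080_at ranged from -0.071 to 0.16. RA differences ranged from -0.014 to 0.22 for Aco1 1447080_at, -0.036 to 0.011 for Slc11a2 1452078_a_at, -0.16 to 0.11 for Slc11a2 1441709_at and -0.025 to 0.0905 for Hamp 1419196_at. Time differences ranged from -0.13 to 0.0050 for Tfrc 1452661_at, -0.0036 to 0.0303 for Fth1 1448771_a_at, -0.012 to 0.00077 for Fth1 1427021_s_at, -0.0015 to 0.14 for Slc11a2 1426441_at, -0.021 to 0.059 for Slc11a2 1417584_at and -0.24 to 0.031 for Slc11a2 1441709_at. Line by time values ranged from -0.18 to 0.17 for Tfrc 1452661_at, -0.089 to 0.087 for Aco1 1456728_x_at, -0.000902 to 0.11 for Ireb2 and -0.017 to 0.0906 for Slc11a2 1452078_a_at. Treatment by time values ranged from -0.13 to 0.20 for Tfrc 1452661_at and -0.039 to 0.71 for Slc40a1 1417061_at.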
